A study of Homo sapiens with 9 samples.

Results

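Among the 63677 gene identifiers counted in 9 RNA-Seq libraries, 9 genes of calcium-dependent noncanonical WNT signaling were followed: the phospholipase C beta genes PLCB1, PLCB3 and PLCB4, the calmodulin-dependent protein kinase II genes CAMK2B, CAMK2D and CAMK2G, and the transcription factor genes NFATC1, NFATC2 and NFATC3. They were taken by name as members of the branch, and each identifier was matched to its symbol. All 9 passed the filter on low counts in every comparison.

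The libraries came from 3 lines of SW480, a human colorectal adenocarcinoma cell line, with 3 libraries of poly(A) RNA per line. SW480 was the wild-type parent. The labels give all 9 libraries, wild type included, the same treatment (BASP1 activation), so the lines were told apart by their titles and genotypes. SW480-B is 1 clone that carries pcDNA3-BASP1, in which the cytomegalovirus promoter drives the BASP1 coding sequence, and that was selected with geneticin. SW480-gRNA-B-all was made by 3 rounds of lentiviral transduction and carries dCas9-VP64, the MS2-P65-HSF1 activator and pooled sgRNAs directed to the endogenous BASP1 promoter. The cells that received the sgRNAs had been grown from a single cell after the dCas9-VP64 step, so this line too descends from 1 cell of the parent. SW480 had received neither set of constructs, and BASP1 itself, the constructs, the selection and the cloning cannot be told apart in a comparison with it. The RNAs were isolated in triplicate and no source used here says that they came from separate cultures, so p-values measure the spread between these preparations only, which may be technical.

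Noncanonical WNT ligands such as WNT5A and WNT11 bind Frizzled receptors and, without beta-catenin, can raise cytosolic calcium. G proteins activate phospholipase C beta, which cleaves a membrane lipid into diacylglycerol and inositol trisphosphate, and the latter opens calcium channels of the endoplasmic reticulum. Calcium bound to calmodulin then activates CAMK2, which can set off a kinase relay that restrains TCF/LEF factors in colon cells, and calcineurin, which removes phosphates from NFAT proteins so that they enter the nucleus.

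The libraries held 25238831 to 29355669 counts on genes, and 3 counts corresponded to 0.0983 to 0.115 CPM (counts scaled to the library's total). BASP1 stood at 11.3, 8.09 and 0.688 CPM in SW480, at 266, 269.9 and 255 CPM in SW480-B, and at 166.5, 308 and 305 CPM in SW480-gRNA-B-all, with replicate 3 of SW480 far below the other two. Of 12 colon epithelium markers, EPCAM and the keratin genes KRT8, KRT18 and KRT19 were abundant in every library, with EPCAM at 279 CPM or more, whereas CDX1, LGALS4 and KRT20 were below 1 CPM and GPA33 at 1.05 CPM or less in all 9. CDH17 stood at 1.63 to 17.4 CPM in SW480 and had 0 counts in both modified lines. CDX2 stood at 28.9 to 41.7 CPM in SW480, 58.3 to 67.8 CPM in SW480-B and 2.41 to 5.51 CPM in SW480-gRNA-B-all. VIL1 stood at 98.3 to 327 CPM in SW480, 29.5 to 36.1 CPM in SW480-B and 6.45 to 21.4 CPM in SW480-gRNA-B-all, and the part of such epithelial differences in the results below was not tested. The summed level of 8 leukocyte markers was 0.983 to 6.04 CPM and that of 8 fibroblast markers 2.95 to 11.1 CPM. Replicates 2 and 3 of SW480-gRNA-B-all were closer to each other than any other pair of the same line: 0.421% of the genes differed by more than 2-fold, against 8.48% to 28% for the other pairs. They differed by more than counting noise (chi-square per gene of 3.31) and were kept as separate libraries, but results are also given with their counts summed.

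The 9 genes lie on 7 chromosomes. In GRCh37 coordinates, CAMK2B (ENSG00000058404) covers chr7:44249618-44374176, CAMK2D (ENSG00000145349) chr4:114339210-114683083 and CAMK2G (ENSG00000148660) chr10:75572259-75634349, all on the minus strand. PLCB3 (ENSG00000149782) lies at chr11:64019002-64036622 on the plus strand. PLCB1 (ENSG00000182621, chr20:8057898-8949007) and PLCB4 (ENSG00000101333, chr20:9048472-9485240), both on the plus strand, are next to each other among the tested genes, between TMX4 and ANKEF1. NFATC2 lies far from them on the same chromosome (ENSG00000101096, chr20:50003494-50179370, minus strand), NFATC1 (ENSG00000131196) at chr18:77155856-77289325 and NFATC3 (ENSG00000072736) at chr16:68118654-68263162, both on the plus strand. A tested gene on the other strand overlaps CAMK2B (YKT6, up to 264 CPM) and NFATC3 (ESRP2, up to 52.1 CPM, and a long noncoding RNA gene of up to 12.1 CPM). The libraries were stranded, but the strand setting of the counting is not given in the sources used here. Where CAMK2B had a log2 fold change of 1.40 (SW480-gRNA-B-all against SW480), YKT6 had -0.12.

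Promoter sequences were available for 7 of the 9 genes, from 250 bases before to 50 bases after the start given by RefSeq (GRCh38.p14). They are shown for the genes with promoter entries that passed the test in SW480-gRNA-B-all, namely CAMK2B, CAMK2D and NFATC2 (the first of its 2 entries), because BASP1 is known as a transcriptional cofactor, and for the first NFATC1 promoter because it held the only motif match. Each was searched on both strands for the TCF/LEF letters CTTTG followed by AT, AA, TT or TA, and for the NFAT core GGAAAA, and no match of one kind overlapped the other. No promoter of the 7 genes held the TCF/LEF letters, which 13.8% of all 35116 promoters in the table hold. The NFAT letters, held by 24.0% of all promoters, were found once, on the reverse strand of the first NFATC1 promoter, beginning 40 bases before the start; they are in capitals. The CAMK2B window (chr7:44325545-44325844, minus strand) is 79.0% G and C, the CAMK2D window (chr4:113761689-113761988, minus strand) 68.3%, the NFATC2 window (chr20:51562790-51563089, minus strand) 57.7% and the NFATC1 window (chr18:79395680-79395979, plus strand) 79.7%.
CAMK2B: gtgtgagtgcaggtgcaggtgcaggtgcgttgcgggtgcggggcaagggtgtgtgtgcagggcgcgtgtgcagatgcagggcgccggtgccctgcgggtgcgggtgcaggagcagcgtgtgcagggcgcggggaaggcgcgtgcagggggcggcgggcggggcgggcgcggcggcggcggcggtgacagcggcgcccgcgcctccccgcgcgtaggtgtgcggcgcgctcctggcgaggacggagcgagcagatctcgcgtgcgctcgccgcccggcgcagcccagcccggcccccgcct
CAMK2D: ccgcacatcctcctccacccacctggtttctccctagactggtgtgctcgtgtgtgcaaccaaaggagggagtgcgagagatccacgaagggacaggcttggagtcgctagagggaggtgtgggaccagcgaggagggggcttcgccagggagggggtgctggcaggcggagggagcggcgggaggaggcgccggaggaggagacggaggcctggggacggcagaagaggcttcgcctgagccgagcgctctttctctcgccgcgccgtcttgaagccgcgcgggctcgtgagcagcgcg
NFATC2: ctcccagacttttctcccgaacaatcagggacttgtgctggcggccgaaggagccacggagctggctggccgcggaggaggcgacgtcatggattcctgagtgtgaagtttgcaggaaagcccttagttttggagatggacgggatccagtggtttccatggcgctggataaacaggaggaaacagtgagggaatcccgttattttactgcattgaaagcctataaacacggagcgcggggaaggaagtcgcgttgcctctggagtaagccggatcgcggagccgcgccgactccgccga
NFATC1: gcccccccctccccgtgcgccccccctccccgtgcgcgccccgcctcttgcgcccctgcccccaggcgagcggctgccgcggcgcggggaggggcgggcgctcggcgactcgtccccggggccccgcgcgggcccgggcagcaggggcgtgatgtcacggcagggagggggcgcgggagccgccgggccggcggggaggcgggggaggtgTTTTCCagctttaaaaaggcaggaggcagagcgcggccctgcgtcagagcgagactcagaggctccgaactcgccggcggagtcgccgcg

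Against SW480, 4 of the 9 genes passed the test in SW480-gRNA-B-all (adjusted p under 0.05 in edgeR's quasi-likelihood test over all 16100 tested genes): CAMK2B, PLCB4 and NFATC2 were higher and CAMK2D was lower. In these bulk libraries, fewer cells with an RNA and less of it per cell cannot be told apart. The background was 7.8% of all tested genes, 2.29% higher and 5.52% lower. The genes were chosen with earlier results of these libraries known, so their directions are not independent evidence. In SW480-B none of the 9 passed (background 1.34%, and 2549 of all genes had an unadjusted p under 0.05), and DESeq2 called none either. In the direct comparison of SW480-gRNA-B-all with SW480-B, CAMK2B, PLCB4 and NFATC2 were again higher and CAMK2D again lower (4 of 9, background 8.76%, with 3.03% higher and 5.73% lower). The median over the 9 genes, as a log2 fold change against SW480, was 0.39 for SW480-gRNA-B-all (-0.054 over all tested genes) and -0.08 for SW480-B (-0.004).

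**Figure D1:**
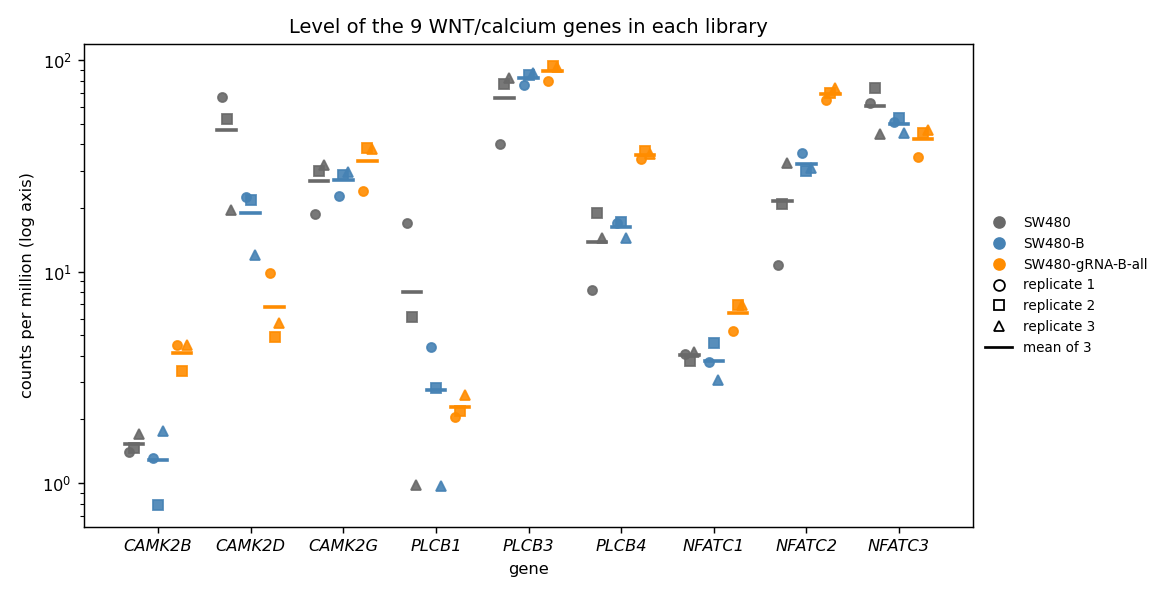
Level of each of the 9 genes in CPM (vertical log axis) by gene (horizontal axis), with 1 point per library, colour for the line, shape for the replicate number and a bar for the mean of 3. PLCB4 and NFATC2 lie above both other lines in every SW480-gRNA-B-all library and CAMK2D lies below both, while PLCB1 spreads from 0.978 to 17.0 CPM within SW480 alone.

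Phospholipase C beta is the step that produces the calcium signal. PLCB3, a widely expressed isoform, was the most abundant of the family and stood at 40.1, 77.0 and 82.6 CPM in SW480, 76.2, 85.6 and 86.9 CPM in SW480-B and 79.6, 94.1 and 93.4 CPM in SW480-gRNA-B-all. Only replicate 1 of SW480 was apart from the rest, and all lines overlapped, although SW480-B was the higher line in each of the 3 same-numbered pairs with SW480. Against SW480 the log2 fold change was 0.38 for SW480-gRNA-B-all (SE 0.26, edgeR adjusted p = 0.363) and 0.33 for SW480-B (SE 0.27, edgeR adjusted p = 0.601).

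PLCB4, known for its part in neurons of the retina and cerebellum, stood at 8.16, 18.9 and 14.5 CPM in SW480 and at 16.9, 17.2 and 14.5 CPM in SW480-B. In SW480-gRNA-B-all it stood at 34.3, 37.4 and 35.9 CPM, and each of these libraries was above all 6 libraries of the other lines. It was 2.53-fold higher than in SW480 (log2 fold change 1.34, SE 0.29, edgeR adjusted p = 0.0397) and 2.20-fold higher than in SW480-B (1.14, SE 0.17, edgeR adjusted p = 0.00687). SW480 and SW480-B overlapped (0.24, SE 0.33, edgeR adjusted p = 0.759).

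PLCB1, the isoform that is also found in the nucleus, varied within SW480 more than any other member relative to its mean. It stood at 17.0, 6.11 and 0.978 CPM in SW480, at 4.42, 2.83 and 0.971 CPM in SW480-B and at 2.06, 2.20 and 2.61 CPM in SW480-gRNA-B-all. The lowest value of SW480 lay below all SW480-gRNA-B-all values and the other two lay above them, so the lines overlapped. The log2 fold change of -1.88 (SE 0.88, edgeR adjusted p = 0.21) did not pass, but it did without replicate 3 of SW480 (-2.37, edgeR adjusted p = 0.0243), and without replicate 1 of SW480 the value was -0.64 (edgeR adjusted p = 0.592). In SW480-B the value was -1.57 (SE 0.93, edgeR adjusted p = 0.45) and -1.09 with the replicate block (edgeR adjusted p = 0.225) and -0.34 without replicate 1 of SW480 (0.917), with SW480-B lower in all 3 same-numbered pairs but by little in the pair numbered 3. That library was also the lowest of SW480 in CAMK2D, NFATC3 and BASP1, and the part of any difference in this preparation was not tested. Although PLCB1 and PLCB4 are neighbours, their fold changes against SW480 had opposite signs, and the flanking genes TMX4 (-0.09) and ANKEF1 (-0.85) did not pass.

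Calmodulin-dependent protein kinase II forms holoenzymes whose subunits are drawn from 4 genes, of which CAMK2D and CAMK2G serve most tissues and CAMK2A and CAMK2B mainly neurons. CAMK2D stood at 67.2, 53.0 and 19.6 CPM in SW480, at 22.7, 21.9 and 12.0 CPM in SW480-B and at 9.91, 4.92 and 5.70 CPM in SW480-gRNA-B-all. The 3 SW480-gRNA-B-all libraries were below all others, whereas SW480-B overlapped SW480 through replicate 3 of SW480, although SW480-B was the lower line in each of the 3 same-numbered pairs. CAMK2D fell 7.05-fold in SW480-gRNA-B-all (log2 fold change -2.82, SE 0.52, edgeR adjusted p = 0.0279), and was 2.77-fold lower there than in SW480-B (-1.47, SE 0.36, edgeR adjusted p = 0.039).

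In SW480-B the log2 fold change of CAMK2D was -1.31 (SE 0.46, edgeR adjusted p = 0.23), and -1.18 with the replicate block (edgeR adjusted p = 0.0714). Without replicate 3 of SW480 it was -1.68 and passed (edgeR adjusted p = 0.0249), and over the other fits without 1 library it was -1.47 to -0.92 and did not pass (lowest edgeR adjusted p = 0.346). The mean levels of the lines therefore stood in the order SW480, SW480-B, SW480-gRNA-B-all, and only the second step and the whole span passed the test on all libraries.

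CAMK2B was a low gene in all lines. It stood at 1.41, 1.46 and 1.70 CPM in SW480 (43, 42 and 47 counts), at 1.31, 0.788 and 1.76 CPM in SW480-B (34, 22 and 49 counts) and at 4.50, 3.39 and 4.51 CPM in SW480-gRNA-B-all (133, 100 and 133 counts). SW480 and SW480-B overlapped and every SW480-gRNA-B-all library was above both. It was 2.63-fold higher than in SW480 (log2 fold change 1.40, SE 0.30, edgeR adjusted p = 0.0397) and 3.19-fold higher than in SW480-B (1.67, SE 0.37, edgeR adjusted p = 0.0287). The call against SW480 was lost with no filter on low counts (1.44, edgeR adjusted p = 0.0531) and with the replicate block (1.39, edgeR adjusted p = 0.0625).

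CAMK2G differed little. It stood at 18.8, 29.8 and 31.9 CPM in SW480, at 22.8, 28.8 and 29.5 CPM in SW480-B and at 24.0, 38.5 and 38.1 CPM in SW480-gRNA-B-all, with replicate 1 the lowest in each line and all lines overlapping. Its log2 fold changes were 0.28 (SE 0.26), 0.02 (SE 0.26) and, between the modified lines, 0.30 (SE 0.22), with edgeR adjusted p of 0.507, 0.977 and 0.443. CAMK2A was nearly undetected, with at most 3 counts in any library, and was not tested.

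Set per kilobase of the canonical transcript, the makeup of the CAMK2 family differed between the lines. CAMK2D held 69.2%, 53.4% and 28.2% of the family's counts per kilobase in SW480, 38.7%, 33.2% and 20.6% in SW480-B and 19.3%, 7.37% and 8.34% in SW480-gRNA-B-all. CAMK2G held 47.4% ± 20.0 (SD, n = 3), 66.3% ± 8.68 and 79.6% ± 8.88 in the same order of lines, and CAMK2B 2.28% ± 0.733, 2.74% ± 1.16 and 8.67% ± 2.34. The family's summed level was 15.3 ± 2.90 CPM per kilobase in SW480, 10.5 ± 0.747 in SW480-B and 10.7 ± 1.61 in SW480-gRNA-B-all. In the phospholipase family, PLCB3 held 79.7% ± 8.19, 85.4% ± 2.26 and 75.6% ± 1.15, and PLCB4 12.2% ± 2.15, 12.4% ± 1.45 and 22.6% ± 1.01. With the length of all annotated exons in place of the canonical transcript, PLCB4 held 4.33% ± 0.747, 4.25% ± 0.567 and 8.37% ± 0.45, and PLCB3 90.8%, 94.4% and 90.4%. These shares describe the levels above and were not tested.

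**Figure D2:**
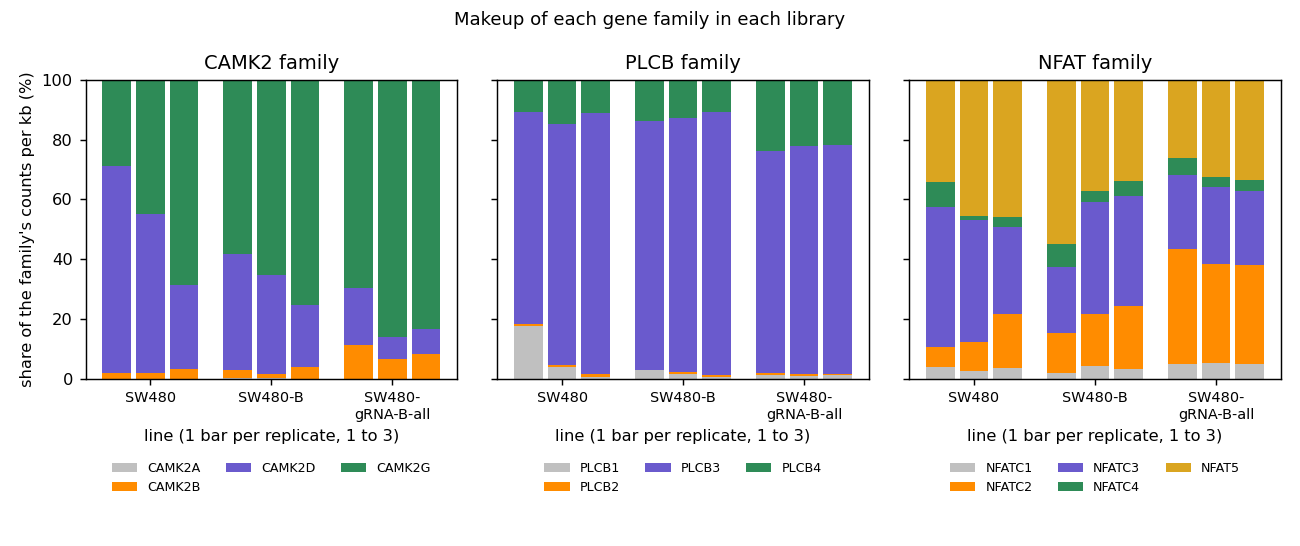
Share of each gene in its family's summed counts per kilobase of canonical transcript (vertical axis, percent), with 1 bar per library in replicate order for each line. CAMK2D takes 28.2% to 69.2% of its family in SW480 and 7.37% to 19.3% in SW480-gRNA-B-all, and NFATC2 takes 6.75% to 18.0% and 33.1% to 38.6%.

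NFATC2 encodes a calcium-regulated factor best known from T cells. It stood at 10.8, 21.0 and 32.9 CPM in SW480, at 36.5, 29.9 and 31.0 CPM in SW480-B and at 64.8, 69.8 and 74.0 CPM in SW480-gRNA-B-all. The SW480 libraries were spread over 3-fold and overlapped SW480-B, but every SW480-gRNA-B-all library was above all of them. NFATC2 rose 3.16-fold against SW480 (log2 fold change 1.66, SE 0.36, edgeR adjusted p = 0.0404) and was 2.13-fold higher than in SW480-B (1.09, SE 0.16, edgeR adjusted p = 0.00688). In SW480-B against SW480 the value was 0.61 (SE 0.37, edgeR adjusted p = 0.467).

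NFATC1, which can be induced by NFAT itself through one of its promoters, was lower in level. It stood at 4.10, 3.78 and 4.17 CPM in SW480, at 3.73, 4.59 and 3.06 CPM in SW480-B and at 5.24, 6.98 and 6.99 CPM in SW480-gRNA-B-all, so the last line did not overlap the others. The log2 fold changes of 0.63 (SE 0.26, edgeR adjusted p = 0.168) against SW480 and 0.75 (SE 0.27, edgeR adjusted p = 0.139) against SW480-B did not pass. The median log2 fold change of the 100 tested genes around NFATC1 on chromosome 18 was -0.74 between SW480-gRNA-B-all and SW480. With an offset taken from the neighbouring genes NFATC1 passed (1.34, edgeR adjusted p = 0.0437). Around the other 8 members the same median lay between -0.37 and 0.14. Around NFATC1 the median was also -0.68 in SW480-B against SW480, and it was -0.07 in SW480-gRNA-B-all against SW480-B.

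NFATC3 had the opposite sign to NFATC1 and NFATC2 in SW480-gRNA-B-all. It stood at 63.1, 74.1 and 44.9 CPM in SW480, at 51.1, 53.1 and 45.3 CPM in SW480-B and at 34.8, 45.6 and 46.8 CPM in SW480-gRNA-B-all, and replicate 3 of SW480 lay within the range of the last line. Against SW480 the log2 fold change was -0.56 for SW480-gRNA-B-all (SE 0.23, edgeR adjusted p = 0.16) and -0.28 for SW480-B (SE 0.24, edgeR adjusted p = 0.608). Without replicate 3 of SW480 the former was -0.72 and passed (edgeR adjusted p = 0.0436), whereas it was -0.38 without replicate 2 of SW480 (0.386) and -0.44 without replicate 1 of SW480-gRNA-B-all (0.314).

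Per kilobase, NFATC2 held 11.5% ± 5.84 of the NFAT family in SW480, 17.4% ± 3.97 in SW480-B and 35.0% ± 3.17 in SW480-gRNA-B-all (SD, n = 3), and NFATC3 38.9% ± 8.92, 32.0% ± 8.60 and 25.1% ± 0.564. The summed level of the family was 24.8 ± 3.78, 26.2 ± 9.10 and 26.7 ± 3.87 CPM per kilobase. The remaining genes were NFATC4 and NFAT5, which responds to osmotic stress rather than to calcineurin. Neither passed in any comparison: their log2 fold changes in SW480-gRNA-B-all against SW480 were 0.03 and -0.37. The value of NFATC4 ranged from -0.30 to 0.74 when 1 library was left out. PLCB2, the isoform of blood cells, stood at 0.192 to 1.02 CPM in all libraries and did not pass.

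**Figure D3:**
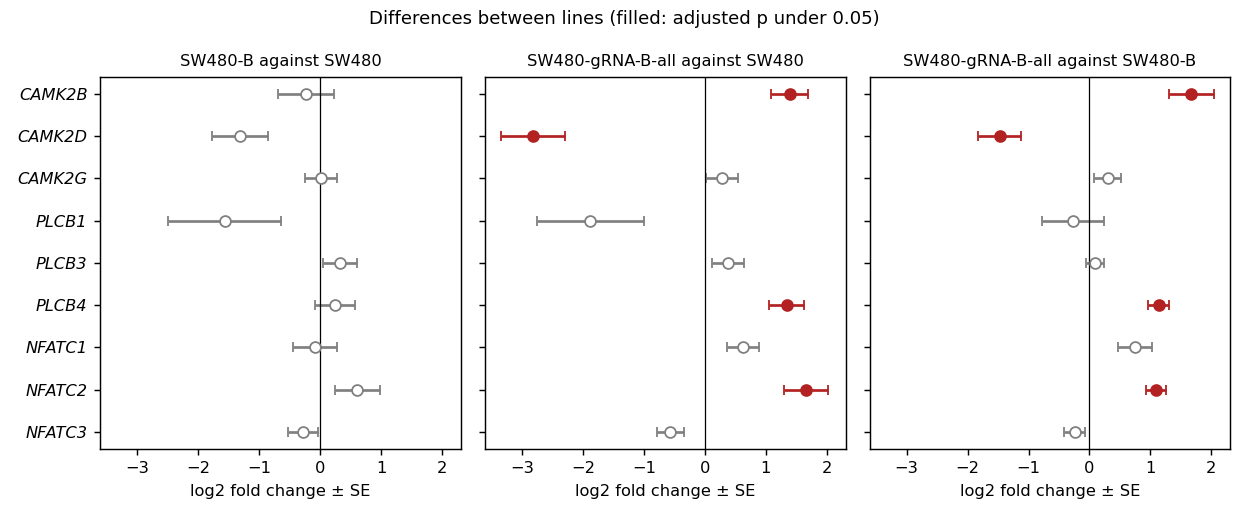
Log2 fold changes of the 9 genes (horizontal axis) with standard errors as bars, in 1 panel per comparison, each over 6 libraries; filled points passed edgeR's test at an adjusted p under 0.05. No gene passed in SW480-B against SW480, and CAMK2B, CAMK2D, PLCB4 and NFATC2 passed in both panels of SW480-gRNA-B-all.

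The calls differed in how they held when libraries were left out. Against SW480, the 4 calls in SW480-gRNA-B-all all passed without replicate 1 or 3 of SW480. None passed without replicate 2 of SW480 or without any 1 of the SW480-gRNA-B-all replicates, although the directions stayed. Few genes of the whole table passed in those fits: 1 higher and 7 lower without replicate 2 of SW480. Without 1 SW480-gRNA-B-all replicate, 14 to 34 of all genes passed as higher and 62 to 144 as lower. Without replicate 1 or 3 of SW480 these numbers were 481 and 837, and 1366 and 2153. None of the 4 calls passed either when SW480-gRNA-B-all replicates 2 and 3 were summed, with edgeR adjusted p between 0.109 and 0.146. Of all genes, 20 passed as higher and 77 as lower in that fit, from 368 and 888 in the main fit. Against SW480-B, PLCB4 and NFATC2 passed in all 6 fits without 1 library (highest edgeR adjusted p = 0.0444 and 0.045) and with the summed replicates. Over the same 6 fits, 136 to 1027 of all genes passed as higher and 285 to 1278 as lower. With all libraries these numbers were 480 and 908, and with the summed replicates 142 and 305. Of those 6 fits CAMK2B passed only without replicate 3 of SW480-B, and CAMK2D only without that library or replicate 1 of SW480-gRNA-B-all (edgeR adjusted p up to 0.126 and 0.156 in the others). With all 9 libraries in 1 fit, CAMK2D (edgeR adjusted p = 0.119) and NFATC2 (0.0893) were lost against SW480-B.

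Non-overlap of the lines gave a similar picture beside a higher background. In SW480-gRNA-B-all, 5 of the 9 genes did not overlap SW480 (CAMK2B, PLCB4, NFATC1 and NFATC2 above, CAMK2D below), where 37.7% of all tested genes did not overlap. The same 5 genes did not overlap SW480-B (background 30.3%), and in SW480-B none of the 9 was clear of SW480 (background 22.5%).

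By Pearson correlation of log2(CPM + 1) over the 9 libraries, among 13734 genes with a mean of at least 1 CPM, the genes most like each member were as follows. CAMK2D was most like BCL11A (r = 0.996), a transcriptional repressor gene, and SEMA3F (0.981), a secreted guidance cue. NFATC2 was most like CHD3 (0.995), a chromatin remodeller of the NuRD complex, and RBMS2 (0.986). PLCB4 was most like HPSE (0.983), the heparanase gene, and MAST3 (0.983), and CAMK2B was most like PREX1 (0.974) and KLHDC8B (0.970). For the other members the highest values were between 0.958 for NFATC1 with DCAF5 and 0.990 for CAMK2G with STIL. The libraries fall into 3 lines and the genes were picked from many, so these values are a description.

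The rest of the branch was followed in 12 lists of 77 matched genes. Against SW480, 66 could be tested for SW480-gRNA-B-all, of which 2 were higher and 3 lower (7.58%, against the background of 7.8%), and their median log2 fold change was -0.01, against -0.05 over all genes. In SW480-B none of 65 passed (background 1.34%). DESeq2 called 2, beside 408 higher and 655 lower of all 16106 tested genes. In SW480-gRNA-B-all against SW480-B 6 of 64 were higher and 7 lower (20.3%, background 8.76%). The lines did not overlap for 28 of the 66, 8 of the 65 and 24 of the 64 genes in these comparisons, beside 37.7%, 22.5% and 30.3% of all tested genes.

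Among the ligands and receptors, WNT11 was the gene that passed against SW480. It stood at 11.2, 14.5 and 6.52 CPM in SW480, at 13.0, 18.4 and 7.19 CPM in SW480-B and at 0.744, 0.746 and 0.577 CPM in SW480-gRNA-B-all, which was far below every other library. The fall was 16.0-fold (log2 fold change -4.00, SE 0.40, edgeR adjusted p = 0.00725) and 18.7-fold against SW480-B (-4.22, SE 0.41, edgeR adjusted p = 0.00161). The call against SW480 was lost without replicate 2 of SW480 (edgeR adjusted p = 0.0501).

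WNT5A, the best known ligand of the branch, stood at 20.6, 192 and 166 CPM in SW480, where replicate 1 was far below the others. It stood at 137, 128 and 247 CPM in SW480-B and 31.1, 60.5 and 61.8 CPM in SW480-gRNA-B-all. The last line was below SW480-B in every library (log2 fold change -1.75, SE 0.34, edgeR adjusted p = 0.0177) but overlapped SW480 (-1.33, SE 0.71, edgeR adjusted p = 0.261). Against SW480, WNT5A passed in 1 of the 6 fits without 1 library, with values from -1.82 to -0.87. FZD2, a WNT5A receptor, was higher than in SW480-B (1.23, SE 0.21, edgeR adjusted p = 0.0119) and had 1.40 (SE 0.46, edgeR adjusted p = 0.106) against SW480. In the latter comparison the lines did not overlap, and FZD2 passed under an alternative setting with all libraries kept. With all 9 libraries in 1 fit, the calls against SW480-B were lost for WNT5A (edgeR adjusted p = 0.168) and FZD2 (0.13). That of FZD2 was also lost without replicate 2 of SW480-B and without replicate 2 or 3 of SW480-gRNA-B-all (up to 0.0724). The receptors ROR1, ROR2, RYK, FZD3, FZD4 and FZD6 did not pass edgeR's main test in any comparison. Under an alternative setting with all libraries kept, FZD3 passed against SW480 (-0.74 in the main fit). ROR2 (0.75) and FZD6 (0.59) did so against SW480-B. The lines did not overlap in these 3 cases. WNT5A and FZD2, like the genes given below for the comparison with SW480-B alone, were chosen after their values were seen.

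Of the G protein subunits that could feed phospholipase C, GNAI1, an inhibitory alpha subunit, was the one that passed against SW480. It stood at 182, 86.3 and 32.6 CPM in SW480, at 13.4, 19.1 and 16.4 CPM in SW480-B and at 2.20, 0.102 and 0 CPM in SW480-gRNA-B-all, where replicate 2 had 3 counts and replicate 3 had 0. The lines did not overlap. The log2 fold change of -7.07 (SE 1.42, edgeR adjusted p = 0.0339) ranged from -10.88 to -6.27 over the fits without 1 library, of which 3 of 6 passed. The call was lost with no filter on low counts (edgeR adjusted p = 0.124) and with the summed replicates (0.113). In SW480-B against SW480, GNAI1 had -2.63 (SE 0.56, edgeR adjusted p = 0.0712), with the lines not overlapping. It passed with DESeq2 (adjusted p = 9.3e-05) and without replicate 3 of SW480 (edgeR adjusted p = 0.00257). The other fits without 1 library did not pass (edgeR adjusted p up to 0.314), and over all 6 the value was -3.05 to -1.84. GNAQ had -0.58 in SW480-gRNA-B-all against SW480 (SE 0.14, edgeR adjusted p = 0.0503), with no overlap. Against SW480-B, GNAI1 and GNAQ, the direct activator of phospholipase C beta, were lower (-4.40 and -0.83, edgeR adjusted p = 0.0433 and 0.0421) and GNAO1, the alpha subunit of the Go protein, was higher (2.03, edgeR adjusted p = 0.00879). Of the fits without 1 library, the GNAI1 call was kept only without replicate 1 of SW480-gRNA-B-all (-8.20), and the GNAQ call only without replicate 3 of SW480-B. Without each of the other libraries they were lost, with edgeR adjusted p reaching 0.142 and 0.158. With all libraries kept, edgeR adjusted p reached 0.254 for GNAI1 with no filter and 0.0999 for GNAQ with the offset from neighbouring genes. The GNAO1 call was lost without replicate 2 of SW480-B (edgeR adjusted p = 0.0505) and with all 9 libraries in 1 fit (0.0615). GNA11, the close relative of GNAQ, went the other way and lay above both other lines in every SW480-gRNA-B-all library. It did not pass edgeR's main test against SW480 (0.83, edgeR adjusted p = 0.114) or SW480-B (0.34, edgeR adjusted p = 0.263). Against SW480 it passed under an alternative setting with all libraries kept.

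Downstream of the phospholipase, the inositol trisphosphate receptor gene ITPR1 was higher than in SW480-B (log2 fold change 1.36, edgeR adjusted p = 0.0282). Of the fits without 1 library, this call was kept only without replicate 1 or 3 of SW480-B (edgeR adjusted p up to 0.108 in the others), and with the offset from neighbouring genes the value was 0.61 (0.305). None of the 9 matched genes of calcium release and store refilling and none of the 3 calmodulin genes passed edgeR's main test against SW480. Of those 9, 4 lay above SW480 with no overlap and 0 below, beside 37.7% of all tested genes without overlap. ORAI2 (0.58), 1 of the 4, passed under an alternative setting with all libraries kept. PPP3CA, which encodes a catalytic subunit of calcineurin, was lower than in SW480-B (-0.96, edgeR adjusted p = 0.0467) and had -1.37 against SW480 (edgeR adjusted p = 0.0581). Of the same kind of fits, its call was kept only without replicate 3 of SW480-B or replicate 1 of SW480-gRNA-B-all (edgeR adjusted p up to 0.197 in the others), and was lost with all 9 libraries in 1 fit (0.138). The genes of the other catalytic subunits did not pass, with PPP3CB at 0.62 against SW480-B and 0.26 against SW480 and PPP3CC at -0.12 and -0.54. Of the 4 tested calcineurin subunit genes, 3 lay below SW480 with no overlap (PPP3CA, PPP3CC and PPP3R1, the last at -0.37) and 0 above. The background without overlap was again 37.7%. Against SW480, PPP3CA passed under an alternative setting with all libraries kept. No inhibitor of calcineurin or NFAT passed in any comparison.

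Of 7 tested genes for other calmodulin-dependent kinases and CAMK2 inhibitors, 2 were higher than in SW480 (background 2.29%) and 5 did not pass edgeR's main test. Of these 5, CAMK1 (1.47, edgeR adjusted p = 0.0713) lay above SW480 in every SW480-gRNA-B-all library. CAMK4 (-0.93), CAMKK1 (-0.93) and CAMKK2 (-0.36) lay below, and CAMK2N2 (0.77) overlapped. CAMK1 and CAMKK1 passed under an alternative setting with all libraries kept. The lines did not overlap for 6 of the 7 genes, beside 37.7% of all tested genes. CAMK2N1, which encodes an inhibitor protein of CAMK2, stood at 8.72, 9.72 and 6.99 CPM in SW480, at 7.80, 3.51 and 7.77 CPM in SW480-B and at 27.4, 25.3 and 21.2 CPM in SW480-gRNA-B-all, so that the last line was clear of the others. It was 2.82-fold higher than in SW480 (log2 fold change 1.50, SE 0.22, edgeR adjusted p = 0.0158). CAMK1D, another calmodulin-dependent kinase, stood at 0.852, 3.96 and 2.83 CPM in SW480, 2.50, 2.87 and 2.91 CPM in SW480-B and 9.06, 18.9 and 19.5 CPM in SW480-gRNA-B-all. Its rise was 6.09-fold (2.61, SE 0.57, edgeR adjusted p = 0.041). Against SW480, the calls of both genes were lost without replicate 2 of SW480 and without each of the SW480-gRNA-B-all libraries in turn, with edgeR adjusted p reaching 0.0855 for CAMK2N1 and 0.143 for CAMK1D. Both were also higher than in SW480-B (1.94 and 2.51, edgeR adjusted p = 0.0105 and 0.00429), as was CAMK1 (1.61, edgeR adjusted p = 0.0382). When 1 library was left out, the CAMK1 call was kept only without replicate 3 of SW480-B (edgeR adjusted p up to 0.154 without another library) and was lost with all 9 libraries in 1 fit (0.0965).

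On the nuclear side, DYRK1A, a kinase that primes NFAT for export from the nucleus, stood at 117, 112 and 96.6 CPM in SW480, 93.9, 100.9 and 77.8 CPM in SW480-B and 62.3, 65.1 and 69.3 CPM in SW480-gRNA-B-all. It fell 1.71-fold (log2 fold change -0.78, SE 0.15, edgeR adjusted p = 0.0304), and the call was lost with the offset from neighbouring genes (edgeR adjusted p = 0.419), without replicate 2 of SW480 and without any 1 of the SW480-gRNA-B-all libraries (highest edgeR adjusted p = 0.153). The other 6 NFAT kinases did not pass edgeR's main test. DYRK2 (-1.12) and GSK3A (-0.77) lay below SW480 in every SW480-gRNA-B-all library. Both passed against SW480 under an alternative setting with all libraries kept, as DYRK2 did against SW480-B (-0.71). NLK, the last kinase of the relay from CAMK2 to TCF, was lower than in SW480-B (-1.19, edgeR adjusted p = 0.00703) but not clear of SW480 (-0.28, edgeR adjusted p = 0.619). The former call was lost with all 9 libraries in 1 fit (edgeR adjusted p = 0.0702).

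Of 11 NFAT target genes, 6 had enough counts to be compared between SW480-gRNA-B-all and SW480, and none passed, with a median log2 fold change of -0.73. RCAN1, a calcineurin-dependent feedback gene, stood at 25.3, 27.6 and 23.4 CPM in SW480 and at 34.6, 19.0 and 17.8 CPM in SW480-gRNA-B-all, with the lines overlapping (-0.13, SE 0.29, edgeR adjusted p = 0.787). The T cell cytokine genes IL2, IL4 and IFNG had 0 counts in all libraries, which allows at most 0.0983 to 0.115 CPM each. FASLG, the gene of the FAS ligand, had 25, 44 and 32 counts in SW480, 63, 86 and 88 in SW480-B and 11, 2 and 5 in SW480-gRNA-B-all, so its fold changes rest on few counts. It was lower than in SW480-B (-3.81, SE 0.54, edgeR adjusted p = 0.00594), with -4.55 to -3.38 over the fits without 1 library, all of which passed. Against SW480 it had -2.53 (SE 0.60, edgeR adjusted p = 0.0504; -3.29 to -2.11 without 1 library), with no overlap, and passed with DESeq2 (adjusted p = 0.00638). In SW480-B against SW480, FASLG went the other way (1.31, SE 0.42, edgeR adjusted p = 0.199), with SW480-B above SW480 and no overlap. It passed there under an alternative setting with all libraries kept.

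**Figure D4:**
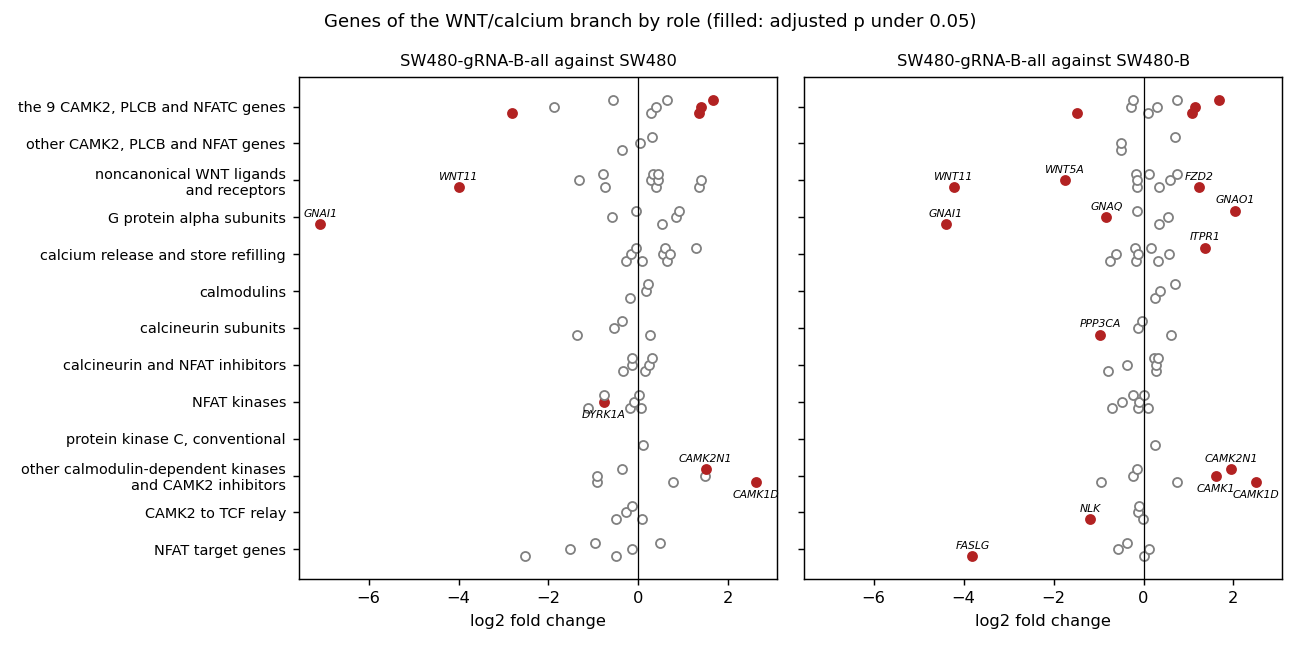
Log2 fold change (horizontal axis) of the tested branch genes reported here, by list, with SW480-gRNA-B-all set against SW480 on the left and against SW480-B on the right; filled points passed edgeR's test and are named except for the 9 genes in the top row. WNT11 (-4.00 and -4.22) and GNAI1 (-7.07 and -4.40) are the lowest of the branch in both panels.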

How the data were processed

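Stranded poly(A) libraries, 3 per line, were sequenced (Illumina NovaSeq). The authors deposited, per library, a file of raw counts per Ensembl gene on GRCh37 (from the submitters' processing notes); the counter and its strand setting are not given in the sources used here. Lines naming no gene (no feature, 5.23% to 9.93%; ambiguous, 3.09% to 3.44%) stayed out. Depth was 25238831 to 29355669 counts. Of 63677 identifiers, 55665 matched a symbol in GENCODE (99.4% of counts); ORAI1 was not matched.

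Each pair of lines (6 libraries) was fitted in edgeR 4.0.16 (R 4.3.3) with filterByExpr (least count 10, least total 15), TMM, glmQLFit (robust) and glmQLFTest, with Benjamini-Hochberg adjustment over all tested genes. A gene passed at an adjusted p under 0.05. SE is the log2 fold change over the square root of F. CPM values use TMM over 9 libraries; per kilobase values use the canonical transcript. The test was tried on simulated counts. Alternatives were RLE, no filter, 1 CPM in 3 libraries, 9 libraries in 1 fit, the replicate block, DESeq2 1.42.0, offsets for GC content and length, an offset from the 50 neighbouring genes on each side, each library left out, summed replicates 2 and 3 of SW480-gRNA-B-all, and a 2-fold threshold. Replicate numbers recur between lines: same-numbered deviations correlated at 0.308, 0.407 and 0.417 for SW480-B and SW480, taken as paired from the data alone. For SW480-gRNA-B-all and SW480 they correlated at 0.321, -0.0375 and 0.326, and these were not taken as paired, although the first and last exceed 0.308. The main fits of all comparisons leave the pairing out, and it enters only in the replicate block.

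Named were the 9 genes, their paralogs, up to 5 passing genes per list and direction in each comparison against SW480, BASP1, the 2 genes most like each member and the genes beside PLCB1 and PLCB4. Other genes of the lists named in the text, those that passed only against SW480-B included, and the markers named fall outside this rule and were chosen after their values were seen. A gene of the lists is not reported here and was left out of their counts. Members, lists and rule were chosen with earlier results of these data known.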

Additional observations from a re-analysis of the deposited data

Results flagged for a closer look

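The difference between SW480-gRNA-B-all and SW480-B, which is the difference between their changes against the shared SW480 libraries, was tested directly and passed for 4 of the 9 genes, beside 8.76% of all tested genes. The log2 fold changes were 1.67 for CAMK2B, -1.47 for CAMK2D, 1.14 for PLCB4 and 1.09 for NFATC2, with edgeR adjusted p of 0.0287, 0.039, 0.00687 and 0.00688. All 3 SW480-gRNA-B-all libraries lay on the same side of all 3 SW480-B libraries for each, as they did for 30.3% of all tested genes. With all 9 libraries in 1 fit the calls of CAMK2D (edgeR adjusted p = 0.119) and NFATC2 (0.0893) were lost, and of the 6 fits without 1 library CAMK2B passed in 1 and CAMK2D in 2. BASP1 stood at 263.5 ± 7.95 CPM (SD, n = 3) for SW480-B and at 259.8 ± 80.8 CPM for the other line. The paper reports a shorter BASP1 transcript from the construct in SW480-B than from the endogenous gene in SW480-gRNA-B-all. A longer transcript gives more counts, and these CPM were not adjusted for it. They therefore do not show equal numbers of BASP1 transcripts in the 2 lines. The lines also differ in constructs, selection and cloning, and these cannot be told apart from the way BASP1 was raised.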

How the results depend on the processing

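With all libraries kept, 4 of the 9 genes passed in SW480-gRNA-B-all against SW480 under most settings: 3 with no filter and with the replicate block (CAMK2B lost, edgeR adjusted p = 0.0531 and 0.0625), 5 with the offset from neighbouring genes (NFATC1 added) and 0 when SW480-gRNA-B-all replicates 2 and 3 were summed. Without 1 library the number was 0 to 6. The 6 came without replicate 3 of SW480, where 1366 of all 16846 tested genes passed as higher and 2153 as lower. For SW480-B against SW480 the number of the 9 genes was 0 to 1, and for SW480-gRNA-B-all against SW480-B 2 to 4. In the last comparison 2 passed with 9 libraries in 1 fit and 2 with the summed replicates. Of the other branch genes, 5 passed in SW480-gRNA-B-all against SW480. This was 8 with no filter, 9 with 9 libraries in 1 fit and 9 with the replicate block. It was 16 with DESeq2, 1 with the summed replicates and 0 to 16 without 1 library. Over all tested genes, 479 were higher and 1045 lower of 29822 with no filter. The same numbers were 638 and 1292 of 16680 with 9 libraries, and 379 and 968 of 16100 with the block. They were 1298 and 1829 of 16100 with DESeq2 and 20 and 77 of 16825 with the summed replicates. Without 1 library they ranged from 1 to 1366 and from 7 to 2153. In SW480-B against SW480, 2 of the other branch genes passed with DESeq2 and 0 to 2 without 1 library. Of all 16106 tested genes, 408 were higher and 655 lower with DESeq2. Without 1 library 0 to 227 genes were higher and 0 to 698 lower. For SW480-gRNA-B-all against SW480-B, the 13 other branch genes became 5 with 9 libraries in 1 fit, 6 with the summed replicates and 6 to 18 without 1 library. Over all tested genes, 480 higher and 908 lower became 214 and 547 with 9 libraries and 142 and 305 with the summed replicates. Without 1 library they became 136 to 1027 and 285 to 1278.

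Signs changed only for differences that had not passed. In SW480-B against SW480, CAMK2G was -0.002 with no filter, -0.014 with 9 libraries in 1 fit, -0.071 with GC and length offsets and -0.167 to 0.157 without 1 library; without 1 library CAMK2B ranged from -0.53 to 0.014, PLCB4 from -0.017 to 0.505 and NFATC1 from -0.236 to 0.051, and NFATC1 was 0.523 with the neighbour offset. There WNT11 ranged from -0.076 to 0.552, CAMK1D from -0.274 to 0.577, WNT5A from -0.042 to 0.873, FZD2 from -0.166 to 0.757 and CAMK1 from -0.712 to 0.491 without 1 library, and with the neighbour offset FZD2 was -0.116 and CAMK1 0.469. Without 1 library, NLK ranged from -0.523 to 0.261 in SW480-gRNA-B-all against SW480. Against SW480-B, PLCB1 ranged from -0.68 to 0.272 without 1 library, and with the neighbour offset PLCB3 was -0.098 and DYRK1A 0.06. The causes were not tested. The replicate block changed no other call of the 9 genes. Deviations of same-numbered libraries from their line means correlated, across genes, at r = 0.321, -0.0375 and 0.326 between SW480-gRNA-B-all and SW480 and at 0.274, -0.12 and 0.31 between SW480-gRNA-B-all and SW480-B, so these libraries were taken to share only a number. Across the whole table, SW480-gRNA-B-all had 368 genes above and 888 below SW480. These became 1298 and 1829 with DESeq2, 379 and 968 with the replicate block, 1366 and 2153 without replicate 3 of SW480, 1 and 7 without its replicate 2, and 34 and 144, 15 and 63, and 14 and 62 without replicates 1, 2 and 3 of SW480-gRNA-B-all. For SW480-B the 15 above and 201 below became 408 and 655 with DESeq2, 57 and 263 with the block, 227 and 698 without replicate 3 of SW480, and 0 and 0 without replicate 1 or replicate 2 of SW480-B (1951 and 1676 genes at an unadjusted p under 0.05).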
